A study of Homo sapiens with 8 samples.

Results

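The 10 genes of the high mobility group (HMG) of chromatin proteins that are described here are HMGA1 (ENSG00000137309), HMGA2 (ENSG00000149948), HMGB1 (ENSG00000189403), HMGB2 (ENSG00000164104), HMGB3 (ENSG00000029993), HMGN1 (ENSG00000205581), HMGN2 (ENSG00000198830), HMGN3 (ENSG00000118418), HMGN4 (ENSG00000182952) and HMGN5 (ENSG00000198157). They were taken by symbol, whatever their values, from the 57736 gene IDs of the count files, and all 10 had an ID in all 8 libraries. IMR90 cells, a human fetal lung fibroblast line, were sequenced in 2 experiments. The first was plain RNA-seq of a control library and of a library of cells in which ADAR1 (gene ADAR), an adenosine-to-inosine RNA editing enzyme, was knocked down. The RNA immunoprecipitation experiment held 3 lines, labelled shControl, shADAR1 and shHuR, and each gave 1 library of RNA recovered with an antibody against HuR (gene ELAVL1), a protein that binds U-rich and AU-rich RNA, and 1 input library. No label names the hairpin sequence, a second hairpin or a mock precipitate, so each knockdown is 1 line and enrichment means recovery against input.

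HMG proteins are abundant nuclear proteins that bind DNA or nucleosomes with little sequence preference and change how chromatin folds. HMGA proteins bind the minor groove of AT-rich DNA through AT hooks, and in senescent fibroblasts they are components of heterochromatin foci. HMGB proteins bend DNA with HMG boxes, and HMGB1 also acts outside the cell as an alarm signal, while HMGN proteins bind the nucleosome core and compete with linker histone H1.

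Total counts were between 28390935 and 50711218 per library. ADAR was at 197 CPM (counts scaled to a common library total) in the RNA-seq control and 28.5 in its knockdown, and at 351, 111 and 270 CPM in the shControl, shADAR1 and shHuR inputs. ELAVL1 was at 131, 125 and 19.3 CPM in the same inputs, so the targeted gene was lowest in each library that carries its label. All 6 fibroblast markers (COL1A1, COL1A2, COL3A1, PDGFRB, THY1, VIM) were detected, with summed levels of 2371 to 11586 CPM. The summed epithelial markers were at 0.606 to 15.3 CPM with KRT5 at 0 in all libraries, the 3 matched endothelial markers at 0.239 to 11.3 CPM with CDH5 at 0, and the leukocyte markers at 3.43 to 47.3 CPM with CD3E at 0. Other members of these lists were detected. In the RNA-seq pair CD68 had 1728 control and 2393 knockdown counts, beside 6 and 3 for PTPRC and 3 and 1 for CD14. CLDN4 had 427 and 675 counts there, and EPCAM 136 and 103. Single markers of other cell types were called in the compared pairs. KDR, an endothelial receptor, had 74 control and 538 knockdown counts in the RNA-seq pair, and CD14, a monocyte marker, had 1 count in the shControl input, 152 in shADAR1 and 15 in shHuR. CLDN4 was lower in the shADAR1 and shHuR inputs (61, 17 and 19 counts from shControl on) and VWF in shHuR (70 and 21). The fibroblast marker COL1A1 was higher in the RNA-seq knockdown (1.63 on the log2 scale) and lower in the shHuR input (-1.31). Their part in the HMG values below was not tested.

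In the RNA-seq control, levels per transcript length were given by the deposited FPKM, which scale fragments by length and depth. HMGB1 was highest at 664.20 FPKM. HMGB2 (206.76), HMGN1 (190.61), HMGA2 (187.96) and HMGN2 (180.07) lay close together, followed by HMGA1 (132.67) and HMGB3 (94.50). HMGN4 (55.25) and HMGN3 (50.13) were lower, and HMGN5, a nucleosome-binding protein with a long acidic tail, was at 3.74 FPKM. Without a second library the order of neighbours in this series cannot be set against a spread. In the knockdown library HMGB1 (701.47 FPKM) was again highest and HMGN5 (1.91) lowest.

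**Figure D1:**
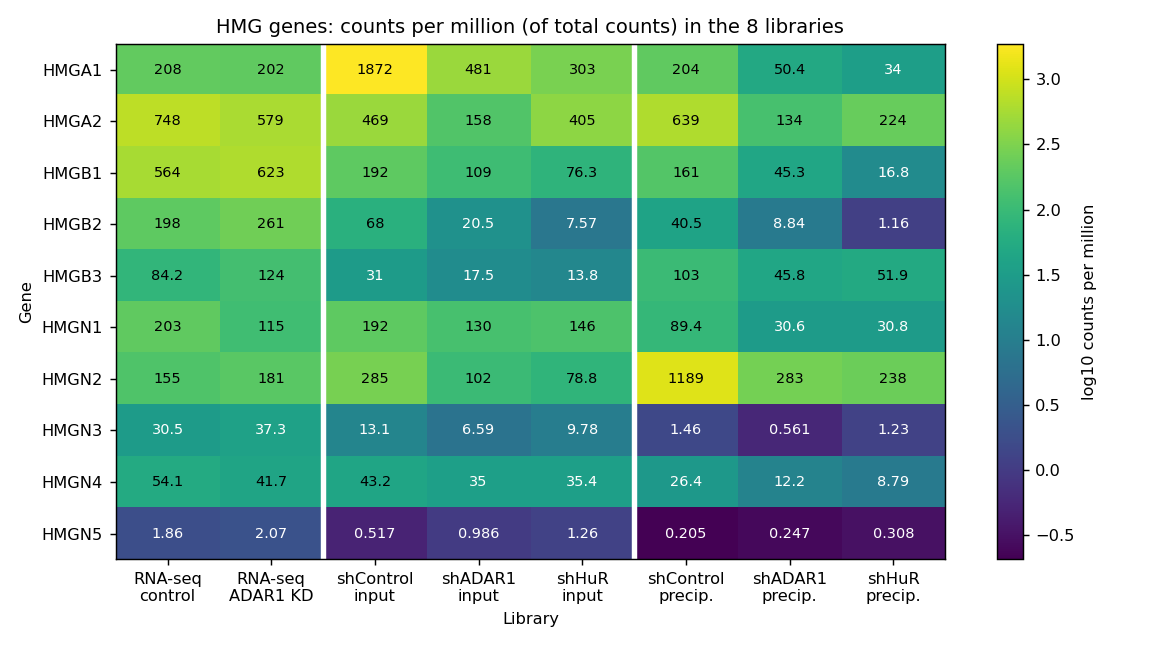
Counts as CPM of the library total for the 10 HMG genes (vertical axis) in the 8 libraries (horizontal axis), with colour on a log10 scale and the value written in each cell. HMGA1 stands at 1872 in the shControl input and HMGN2 at 1189 in the shControl precipitate, and HMGN5 is the lowest gene in every library.

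ADAR1 knockdown in the RNA-seq experiment left all 10 HMG genes within 2-fold. A call required a 2-fold difference and 50 or more counts in 1 library of the pair, after TMM normalization, which uses a trimmed mean of log ratios. By that rule 8.31% of 13235 genes were higher and 7.71% were lower, against 0 of 10 HMG genes in each direction. The intervals given with ratios of a pair of libraries are exact 95% intervals for counting error only. They say nothing of the spread between cultures, since each group held 1 library. In bulk RNA, fewer cells of a kind and less RNA per cell cannot be told apart.

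The widest difference was in HMGN1, a nucleosome-binding protein that promotes open chromatin. It had 7953 counts in the control and 5826 in the knockdown, or 203 and 115 CPM. The log2 ratio was -0.84 (interval -0.89 to -0.79), a 1.79-fold lower level. After removal of its trends with GC content and length it was -1.06, past the 2-fold limit.

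HMGA2 had 29289 and 29387 counts in control and knockdown, which is 748 and 579 CPM and a log2 ratio of -0.38 (-0.41 to -0.36). HMGA1, with 8153 and 10239 counts, was at -0.06 (-0.10 to -0.02). Both AT-hook genes were thus lower by less than 1.5-fold.

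The 3 HMGB genes had ratios above 0 in this pair, with none called. HMGB3, an X-linked relative of HMGB1, had 3298 and 6311 counts and a log2 ratio of 0.55 (0.49 to 0.61). HMGB2, a gene whose level follows proliferation, had 7741 and 13211 counts and a ratio of 0.38 (0.34 to 0.42). HMGB1, at 22082 and 31597 counts, had a ratio of 0.13 (0.10 to 0.15), or 0.71 with the GC and length trends removed. Over both experiments together, edgeR gave log2 fold changes of -0.08 for HMGB3, -0.62 for HMGB2 and -0.29 for HMGB1, none past the test.

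HMGN2 (0.21), HMGN3 (0.27) and HMGN4 (-0.39) had small log2 ratios. HMGN5 had 73 and 105 counts and a ratio of 0.14 (-0.31 to 0.59), while its deposited FPKM went the other way, with a log2 ratio of -0.93. The direction of HMGN5 is therefore not settled by these libraries.

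Part of the HMGB1 signal is uncertain because of processed copies of the gene. In the RNA-seq libraries, HMGB1 pseudogenes took 37.3% and 39.8% of the counts of HMGB1 and its pseudogenes together, most of them on HMGB1P6 (10306 and 15797 counts). In the 6 precipitation libraries that share was 9.34% to 15.4%. HMGN2 pseudogenes took 7.64% and 11.8% in the RNA-seq libraries and less than 1% in the others. Reads that fit a gene and its copies cannot be assigned from gene counts, and adding the copies' counts left the number of called HMG genes at its value in each comparison. HMGN3 shares 19.0% and HMGA2 2.49% of its exon length with an antisense gene, whose reads cannot be separated without strand information.

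Among the inputs, the shADAR1 line had less HMG RNA than the shControl line. Of the 9 HMG genes with enough counts, 4 were called lower and 0 higher, where 10.3% of 13192 genes were lower and 9.14% higher. The median log2 ratio of these 9 genes was -0.87, and that of all genes -0.03. With scaling by total counts both medians moved down, to -0.99 and -0.14. All 9 genes stood below 0 with TMM, total counts and DESeq2 size factors. A change of scaling moves all genes by about the same amount, and the median of all genes was -0.01 with size factors. These shifts were too small to bring the gene nearest 0, HMGN4 at -0.19, above 0.

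HMGA1 differed most, with 68747 shControl and 13657 shADAR1 counts (1872 and 481 CPM). Its log2 ratio of -1.85 (-1.87 to -1.82) is a 3.59-fold lower level. HMGB2 had 2497 and 581 counts and was 3.07-fold lower (-1.62, -1.75 to -1.49). The AT-hook gene HMGA2 had 17230 and 4482 counts, 2.74-fold lower (-1.46, -1.50 to -1.41). HMGN2 completed the called genes, with 10466 and 2890 counts and a 2.59-fold lower level (-1.37, -1.43 to -1.31).

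The other members were closer to the control. HMGN3 was at -0.88, HMGB1 and HMGB3 at -0.71 each, HMGN1 at -0.44 and HMGN4 at -0.19 on the log2 scale. HMGN5 had 19 and 28 counts, too few for a call.

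In the shHuR input, 5 of 9 HMG genes were called lower than in the shControl input and 0 higher, where 15.9% of 13390 genes were lower and 12.0% higher. Their median log2 ratio was -1.14, beside -0.03 for all genes. HMGB2 had 2497 counts in shControl and 264 in shHuR, an 8.82-fold lower level (-3.14, -3.33 to -2.96). HMGA1 had 68747 and 10567 counts and was 6.07-fold lower (-2.60, -2.63 to -2.57). HMGN2 was 3.55-fold lower (-1.83), HMGB1 2.47-fold lower (-1.31) and HMGB3 2.21-fold lower (-1.14).

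HMGA2 stood apart from HMGA1 in this line. It had 17230 shControl and 14111 shHuR counts (469 and 405 CPM), a log2 ratio of -0.19 (-0.22 to -0.16). HMGN1 (-0.37), HMGN3 (-0.40) and HMGN4 (-0.26) also lay within 2-fold. HMGN5, with 19 and 44 counts, had a ratio of 1.31 (0.51 to 2.17) on too few counts for a call. The comparisons of shADAR1 and shHuR with shControl share the shControl input, so a high or low value there enters both. HMGA1 had 1872, 481 and 303 CPM in the shControl, shADAR1 and shHuR inputs, all above the 208 CPM of the RNA-seq control in the other experiment.

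A comparison that leaves the shControl input out set shHuR against shADAR1 directly. HMGA2 was called higher in the shHuR input, by 2.43-fold (1.28, 1.23 to 1.33), and HMGB2 lower, by 2.85-fold (-1.51, -1.72 to -1.30). Over all 13020 genes, 5.24% were higher and 9.67% lower. HMGA1 (-0.74), HMGB1 (-0.59), HMGN2 (-0.44) and HMGB3 (-0.42) were below 0 and HMGN3 (0.50) above it, all within 2-fold. HMGN1 (0.09) and HMGN4 (-0.06) were near 0, with HMGN1 at -0.07 once the GC and length trends were removed and HMGN4 at 0.01 with total counts.

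**Figure D2:**
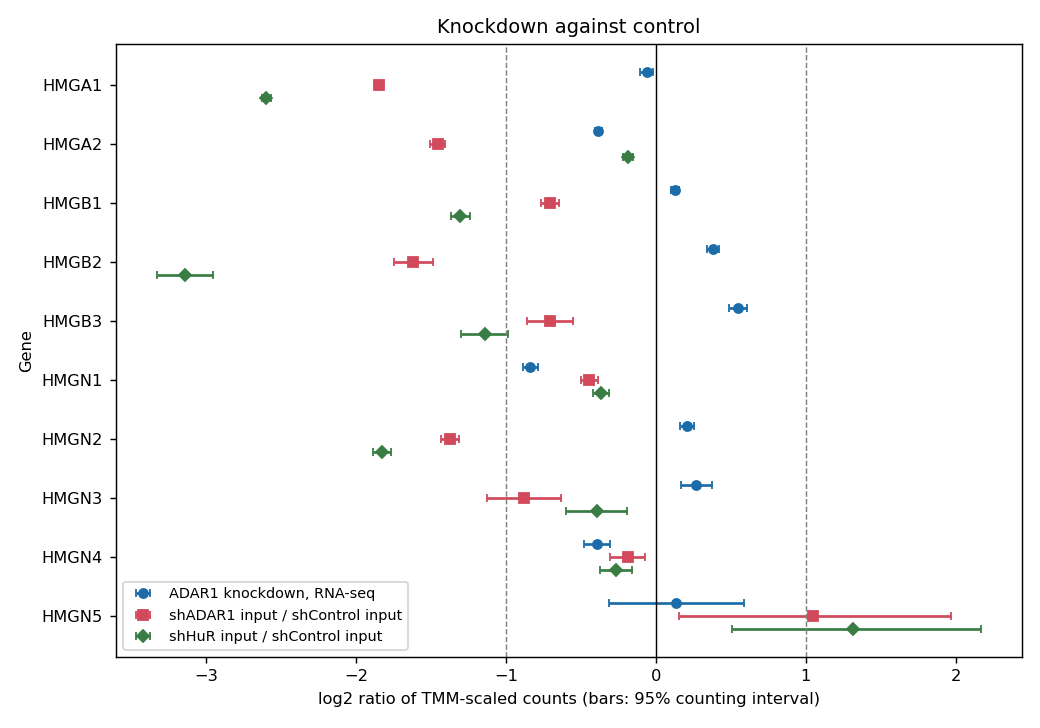
Log2 ratio of TMM-scaled counts (horizontal axis) for each HMG gene (vertical axis) in the ADAR1 knockdown of the RNA-seq experiment (circles), the shADAR1 input (squares) and the shHuR input (diamonds), each against its control. Bars are 95% counting intervals and dashed lines mark 2-fold; HMGB2 lies at 0.38, -1.62 and -3.14, and HMGA2 at -0.38, -1.46 and -0.19.

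The only repeats of ADAR1 knockdown are the 2 experiments, so they were also tested together. In edgeR's quasi-likelihood test over 4 libraries, with the experiment as block, 0.0813% of 15994 genes were higher and 0.0125% lower at an adjusted p under 0.05. None of the 10 HMG genes passed (adjusted p = 1.0 for each), and 0 had an unadjusted p under 0.05. The log2 fold changes were -0.96 (SE 0.56) for HMGA1 and -0.93 (SE 0.50) for HMGA2, followed by HMGN1 at -0.65, HMGB2 at -0.62 and HMGN2 at -0.59. With DESeq2, 0 HMG genes passed and HMGA2 alone had an unadjusted p under 0.05 (0.0452). The fit has 1 residual degree of freedom, and HMGB1, HMGB2, HMGB3, HMGN2 and HMGN3 had ratios above 0 in the RNA-seq pair and below 0 in the inputs.

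Genes that act with the HMG proteins were read beside them. Linker histones, which HMGN proteins displace from nucleosomes, were called higher for 5 of 7 and lower for 0 of 7 in the RNA-seq knockdown, with H1-1 at 2.30, H1-10 at 1.97 and H1-3 at 1.55 on the log2 scale. In the shADAR1 input 4 of 7 were lower, among them H1-5 at -1.92, and in the shHuR input 5 of 7 were lower, with H1-3 at -5.67, H1-5 at -5.43 and H1-4 at -4.50. No linker histone was higher in either input comparison.

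Of 10 proliferation genes, E2F1 alone was called in the RNA-seq knockdown, where it was higher (1.11), while 7 were lower in the shADAR1 input and all 10 in the shHuR input, where their median log2 ratio was -3.49. MKI67 was at -4.64, LMNB1 at -4.62 and FOXM1 at -4.58 there. HMGA1, HMGB2 and HMGN2 were also called lower in both input comparisons. In shHuR against shADAR1, 8 of the 10 proliferation genes were called lower, where 9.67% of all genes were. HMGB2 (-1.51) was called lower there, and HMGA1 (-0.74) and HMGN2 (-0.44) were not. The part of the proliferation genes in the HMG levels was not tested.

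Shares of all genes called, given above for each comparison, were 8.31% higher and 7.71% lower in the RNA-seq knockdown, 9.14% and 10.3% in the shADAR1 input and 12.0% and 15.9% in the shHuR input. Other proteins with an HMG box, among them the SOX and TCF/LEF factors, were called higher for 5 and lower for 0 of 25 in the RNA-seq knockdown, with LEF1 at 2.45, TCF7 at 2.09 and SOX4 at 1.63. In the shADAR1 input 2 of 27 were higher and 4 lower, and in the shHuR input 0 were higher and 9 lower, with TOX at -4.15, SOX11 at -3.76 and NSD2 at -2.87. Heterochromatin focus and chaperone genes, which include partners of HMGA in the foci, were lower for 1 of 14 (CBX1, at -1.04) in the RNA-seq knockdown. In the shADAR1 input 2 of 14 were lower (CHAF1B at -1.23 and HIRA at -1.17) and in the shHuR input 4 of 14, led by ASF1B at -4.71; 0 were higher in any of the 3. For both lists the shADAR1 counts are near the shares of all genes, as is the 1 of 14 in the RNA-seq knockdown.

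Of 8 receptors and partners of extracellular HMGB1, 2 had enough counts for a call in the RNA-seq pair and in the shADAR1 input and 3 in the shHuR input. SDC1, a cell surface proteoglycan, was lower in the shADAR1 (-1.19) and shHuR (-2.71) inputs, and CXCL12, the chemokine that HMGB1 binds, was lower in shHuR (-1.98). TLR4, a receptor for HMGB1, had 0, 4 and 119 counts in the shControl, shADAR1 and shHuR inputs.

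The levels of 2 members were compared with all genes over the 8 libraries. Likeness was the root mean square difference of log2(CPM + 1), centred for each gene, among 8955 genes with a mean of at least 10 CPM. For HMGB2 the nearest genes were CEP55 (0.36), HJURP (0.42) and CCNA2 (0.44), against a median of 2.16 over all genes. For HMGA2 they were ITPRID2 (0.35), CCBE1 (0.37) and TBC1D4 (0.40), against a median of 1.28. The measure spans both experiments and both fractions, so near genes could differ in single comparisons. From RNA-seq control to knockdown CEP55 went from 137 to 86.6 CPM and HMGB2 from 198 to 261, while HJURP and CCNA2 rose. From shControl input to precipitate ITPRID2 went from 470 to 330 CPM and HMGA2 from 469 to 639.

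Recovery with the HuR antibody was read from each precipitate against its input. In edgeR's quasi-likelihood test of precipitate against input over the 3 lines, 3 of 10 HMG genes were higher in the precipitates and 3 lower, where 30.3% of 16232 genes were higher and 31.3% lower, so the shares are near those of all genes. HMGN2 (log2 fold change 2.67, SE 0.26, adjusted p = 1.96e-05) and HMGB3 (2.64, SE 0.29, adjusted p = 3.97e-05) were the most enriched. HMGA1 (-2.24, SE 0.25, adjusted p = 4.17e-05) and HMGN3 (-2.26, SE 0.37, adjusted p = 0.000409) were the most depleted. With 1 culture per line, these p-values cover the spread between the sequenced libraries alone. The 3 lines are not replicates of 1 condition, and in shHuR the gene of the precipitated protein was itself knocked down. ELAVL1 was at 19.3 CPM in the shHuR input and 131 in the shControl input. Without the shHuR line, 3 HMG genes were again higher and 3 lower, beside 5383 and 5863 of 15599 genes. HMGB1, at -0.27 over the 3 lines, was at 0.16 without shHuR and passed in neither fit.

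The U-richest 30-base windows of the 3′ untranslated regions are shown for the 3 genes that passed the test as higher and for 2 of the 3 that passed as lower, since HuR is known to bind U-rich RNA. They come from the GENCODE 29 principal transcripts, and capitals mark runs of at least 5 U.
HMGN2: agaauuuuguuuuacUUUUUUUUUUUUUUU
HMGB3: uguugcUUUUUUUUUUUUUUUcccccauuu
HMGA2: UUUUUcuaugUUUUUUUaauuaaaaauuuu
HMGA1: guuguguugUUUUUUguucaauguuccauu
HMGN3: uggugUUUUUacugugcauauuugaauuuu
The windows hold 23 U in HMGN2, 21 in HMGB3, 20 in HMGA2, 18 in HMGA1 and 17 in HMGN3. Among the genes that did not pass, the windows hold 20 U in HMGB1 and HMGN5, as in HMGA2, 19 in HMGB2 and 17 in HMGN4. In HMGN2 and HMGB3 an unbroken stretch of U fills part of the window. The windows lie at bases 84 to 113 of the 824-base region in HMGN2 and bases 2630 to 2659 of the 2861-base region in HMGB3.

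HMGN2, the nucleosome-binding protein with the most precipitated RNA of the family, had 46326, 12612 and 6953 counts in the shControl, shADAR1 and shHuR precipitates and 10466, 2890 and 2747 in the inputs. The log2 precipitate to input ratios were 2.82, 2.34 and 2.55 in the same order. HMGB3 had 4006, 2042 and 1517 precipitate counts and 1139, 498 and 481 input counts, with ratios of 2.49, 2.25 and 2.87. With TMM both genes were above 4-fold in every line, also in the line with ELAVL1 knocked down. With total counts the ratios were 2.06, 1.47 and 1.59 for HMGN2 and 1.73, 1.38 and 1.91 for HMGB3, still past 2-fold, and the edgeR values were 1.71 (adjusted p = 0.000223) and 1.67 (adjusted p = 0.000407).

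HMGA2 was the third gene past the test (0.74, SE 0.28, adjusted p = 0.0395), and its call rested on the choice of libraries. The ratios were 1.2 (24873 precipitate and 17230 input counts) in shControl, 0.62 (5956 and 4482) in shADAR1 and 0.10 (6550 and 14111) in shHuR. It did not pass in edgeR without the shControl line (0.44, adjusted p = 0.312) or without the shADAR1 line (0.55, adjusted p = 0.389). Both of these fits keep shHuR, the line with ELAVL1 knocked down. Without the shHuR line HMGA2 passed the edgeR test (1.02, SE 0.24). The fit over the 3 lines has 2 residual degrees of freedom, and fits that leave out a line hold fewer libraries. Their adjusted p-values can therefore not be set against its 0.0395 as stronger or weaker evidence. With scaling by total counts, which moved the median of all genes from -0.11 to -1.06, HMGA2 was at -0.22 (adjusted p = 0.535).

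HMGA1 was depleted in all 3 lines, with 7931, 2247 and 993 precipitate counts against 68747, 13657 and 10567 input counts and ratios of -2.44, -2.39 and -2.20. With the GC and length trends removed the shControl ratio was -0.67, within 2-fold, and those of shADAR1 and shHuR were -1.29 and -1.56. HMGN3 was depleted in all lines too (-2.40, -2.69 and -2.04), on 57, 25 and 36 precipitate counts. HMGN1 passed the test as lower (-0.86, SE 0.30, adjusted p = 0.0262), with ratios of -0.34, -1.23 and -1.29, and did not pass without the shADAR1 line (-0.92, adjusted p = 0.203).

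HMGB1 (-0.27, adjusted p = 0.506), HMGB2 (-0.54, adjusted p = 0.237), HMGN4 (-0.45, adjusted p = 0.249) and HMGN5 (-0.83, adjusted p = 0.258) did not pass the edgeR test. HMGB1 ran from 0.50 in shControl over -0.40 in shADAR1 to -1.23 in shHuR, and its shControl ratio was -0.25 with total counts and -0.83 with the GC and length trends removed. HMGB2 had ratios of 0.01, -0.35 and -1.75, the last on 34 precipitate counts, and HMGN4 of 0.05, -0.66 and -1.05. HMGN5 had 8, 11 and 9 precipitate counts, and its ratios are not read.

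By line, the 2-fold rule called 3 of 9 HMG genes enriched and 2 depleted in shControl, where 28.9% of 13309 genes were enriched and 40.3% depleted. In shADAR1 it called 2 enriched and 3 depleted, beside 30% and 37.5% of 13114 genes. In shHuR it called 2 enriched and 6 depleted, beside 24.8% and 26.6% of 13061 genes. HMGN2 and HMGB3 were the enriched genes of every line, with HMGA2 added in shControl. HMGB1, HMGB2 and HMGN4 were called depleted in shHuR and lay within 2-fold in the other lines. With the GC and length trends removed, HMGA2 in shControl was at 0.48, HMGN1 in shADAR1 at -0.64, and HMGN1 and HMGN4 in shHuR at -0.79 and -0.47, which ends these calls, and HMGB1 in shADAR1 was at -1.36, past the limit. With total counts the median ratio of all genes was -1.11 in shControl and shADAR1 and -1.25 in shHuR, against -0.36, -0.26 and -0.31 with TMM, and levels of enrichment are read relative to those medians.

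**Figure D3:**
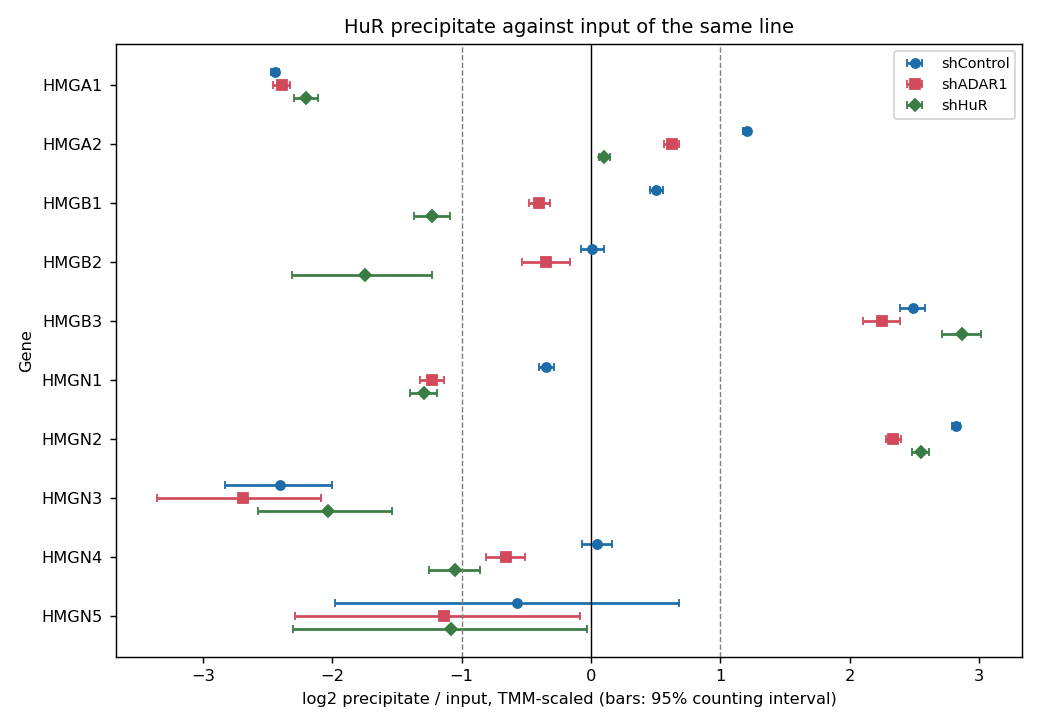
Log2 precipitate to input ratio of TMM-scaled counts (horizontal axis) for each HMG gene (vertical axis) in the shControl (circles), shADAR1 (squares) and shHuR (diamonds) lines. Bars are 95% counting intervals and dashed lines mark 2-fold; HMGN2 and HMGB3 lie above 2 and HMGA1 and HMGN3 below -2 in all 3 lines.

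To compare enrichment from line to line, a 1.5-fold limit was used for genes whose mean log2 enrichment over both lines was 1 or more, which of the HMG genes only HMGN2 and HMGB3 met. For shADAR1 minus shControl, 13.1% of 3724 genes were higher and 8.65% lower, and neither HMG gene was called (HMGN2 -0.48, HMGB3 -0.24). For shHuR minus shControl, 25.2% of 3241 genes were higher and 26.1% lower, and again neither was called (HMGN2 -0.27, HMGB3 0.37). For shHuR minus shADAR1, 19.8% of 3361 genes were higher and 20.9% lower, and HMGB3 was called higher (0.62, interval 0.41 to 0.82) while HMGN2 was not (0.21).

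Members outside that condition are given as values. HMGB1 had a difference of -0.90 in shADAR1 and -1.73 (-1.88 to -1.58) in shHuR, both minus shControl. HMGB2 was at -0.36 and -1.72, HMGA2 at -0.58 and -1.10, HMGN4 at -0.71 and -1.10, and HMGN1 at -0.88 and -0.95. The median over all genes was 0.09 for shADAR1 and 0.33 for shHuR. These 5 genes had differences below 0 in both lines under TMM, total counts and DESeq2 size factors. A change of scaling moves all genes by about the same amount, and here it moved them down. The all-gene medians became -0.02 and 0.13 with total counts and -0.01 and 0.25 with size factors. The signs of the 5 genes could therefore not change. Both differences use the shControl precipitate and input. HMGA1 was at 0.05 in shADAR1 and 0.24 in shHuR, or -0.61 and -0.91 with the GC and length trends removed, so its direction is not settled. HMGN3 was at -0.23 (-0.95 to 0.49) and 0.37 (-0.26 to 1.01), with 0 inside both intervals.

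Base composition of the 3′ untranslated regions was read from GENCODE 29 for the longest principal transcript of each gene. All genes were split into 5 classes of equal size by U content, and the log2 ratios of the lines were averaged for each gene. The median of these means went from -1.54 in the lowest class over -0.78, -0.08 and 0.30 to 0.25 in the highest. HMGA1 lay in the lowest class, with 23.3% U. Every other member had more U than the median of 30.3% over 12011 genes, from 32.2% in HMGB3 to 40.5% in HMGB2. HMGN3, depleted in all lines, had 39.5% U, more than 97.9% of genes, on 25 to 57 precipitate counts.

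Runs of 5 U (UUUUU, searched on the mRNA strand with overlapping matches counted) occurred in all 10 members and in 82.6% of all genes. HMGN2 had 17 such matches (20.6 per kilobase), HMGB3 35 (12.2 per kilobase) and HMGA2 25 (8.32 per kilobase), while HMGA1 had 3 (2.23 per kilobase). A stretch longer than 5 U gives several overlapping matches, so matches are not a count of separate stretches. The median over all genes was 5.76 per kilobase. HMGB2 (26.0 per kilobase), which did not pass the precipitation test, had more than HMGN2. HMGN1 (20.1 per kilobase), which passed as lower, had nearly as many as HMGN2. HMGN3 (15.8 per kilobase), which also passed as lower, had more than HMGB3. HMGB1 (10.5 per kilobase) and HMGN4 (10.3 per kilobase), which did not pass, had more than HMGA2. The AU-rich pentamer AUUUA, searched the same way, was present in 73.9% of genes and in HMGB1 (18 matches), HMGA2 (10), HMGN5 (5), HMGB3 (4), HMGN3 (2), HMGB2 (1) and HMGN1 (1), and had no match in HMGN2, HMGN4 or HMGA1. A match is a description of the letters and not a binding site.

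**Figure D4:**
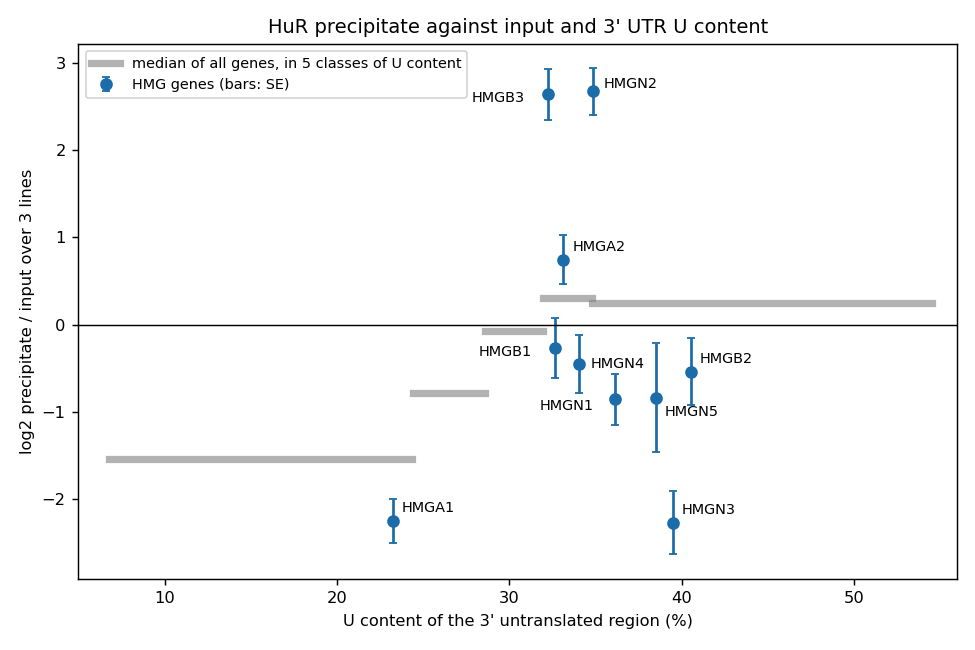
Log2 fold change of precipitate against input over 3 lines (vertical axis) against the U content of the 3′ untranslated region in percent (horizontal axis) for the 10 HMG genes, with SE bars from edgeR. Grey bars give the median of all genes in each of 5 classes of U content, from -1.54 to 0.25 in the lowest and highest. The bars use the mean of the ratios of the lines and the points use edgeR, so the scales differ. The median of all genes was -0.11 by edgeR and -0.36, -0.26 and -0.31 in shControl, shADAR1 and shHuR. HMGA1 lies at 23.3% U and -2.24, and HMGN3 at 39.5% U and -2.26.

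HMGA2 is a known target of the let-7 family of microRNAs, and its 3′ untranslated region of 3003 bases (transcript HMGA2-204) held 4 matches to the let-7 seed, CUACCUC, on the mRNA strand. Of 12011 genes, 10.5% had at least 1 match and 0.075% had 4 or more. HMGA1 had 1 match and the other members 0. The mature let-7a-5p is given from RefSeq with its seed (bases 2 to 8) in capitals, followed by the HMGA2 sites with the seed match in capitals, since they set HMGA2 apart from the rest of the family.
let-7a-5p: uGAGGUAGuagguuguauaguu
HMGA2 bases 6 to 28: gccaacguucgauuuCUACCUCa
HMGA2 bases 1241 to 1263: ccccacuacucaauaCUACCUCu
HMGA2 bases 1653 to 1675: uugacuugcaaagacCUACCUCc
HMGA2 bases 2506 to 2528: aaucaaaacacacuaCUACCUCu
MicroRNA levels were not analysed here. Of 8 genes that act on let-7 or on HMGA2 mRNA, 5 had enough counts (IGF2BP1, IGF2BP2, IGF2BP3, DICER1 and AGO2), and 0 of them were called in the RNA-seq knockdown or in either input comparison. In the precipitates 4 of 5 were higher by edgeR, where 30.3% of all genes tested were. IGF2BP1, an mRNA-binding protein, was at 2.42 (adjusted p = 3.23e-05), AGO2 at 1.97 (adjusted p = 0.000121) and DICER1 at 1.76 (adjusted p = 0.000255).

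The other lists differed in how many members were recovered. Of the 27 other HMG-box genes tested with edgeR, 14 were higher and 7 lower in the precipitates, with SOX4 at 3.78, SOX11 at 3.62 and SOX9 at 3.48 (adjusted p = 1.02e-05 each), all above HMGN2 and HMGB3. Linker histones were higher for 0 and lower for 5 of 7, with H1-1 at -3.31, H1-3 at -2.96 and H1-2 at -2.89. Heterochromatin focus and chaperone genes were higher for 3 and lower for 5 of 14, led by UBN2 at 2.88 and CBX5, the heterochromatin protein HP1 alpha, at 2.59. Proliferation genes were higher for 1 and lower for 7 of 10. Receptors and partners of extracellular HMGB1 were higher for 2 and lower for 0 of 5. The share of all genes passing the test was 30.3% higher and 31.3% lower, as given above.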

How the data were processed

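Expected counts per gene were estimated by the authors with RSEM 1.2.3 on hg19, per the submitters' processing notes, and the deposited values are whole numbers in the files. The FPKM values of the RNA-seq pair were also deposited by the authors and served for levels per length and for 1 alternative. Aligner, annotation release and strand setting are not given in the sources used here. No coordinates are printed, because the reference tables follow a later build.

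Ratios of a pair of libraries used TMM scaling, exact conditional binomial intervals at 95%, and a prior count of 2 for values over all genes. Calls needed 2-fold and 50 counts. Tests used edgeR 4.0.16 in R 4.3.3 (quasi-likelihood, filter on low counts, TMM, Benjamini-Hochberg over all genes, threshold 0.05). DESeq2 1.42.0 was an alternative. The edgeR tests were also run on simulated data drawn without differences between blocks, so that run does not cover such differences. The experiment was the block of the knockdown test, since each experiment has its own control by the labels, and the line was the block of the precipitation test, since precipitate and input of a line share its cells by the labels. All 10 members are named; of each list, at most the 3 called genes with the largest ratio or fold change in a comparison are named with a value. The members and lists were chosen with earlier results of these data known. The sequence window of 1 gene that passed the precipitation test as lower is not reported here.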

Additional observations from a re-analysis of the deposited data

Results flagged for a closer look

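In 5 HMG genes the ADAR1 knockdown libraries of the 2 experiments lay on opposite sides of their controls, above in the RNA-seq pair and below in the inputs. The log2 ratio of the RNA-seq pair minus that of the inputs was 2.00 for HMGB2, 1.58 for HMGN2, 1.25 for HMGB3, 1.15 for HMGN3 and 0.83 for HMGB1. Genes on the same side in both experiments also differed in size. HMGA1 was at -0.06 in the RNA-seq pair and -1.85 in the inputs, and HMGA2 at -0.38 and -1.46. HMGN1 (-0.84 and -0.44) and HMGN4 (-0.39 and -0.19) were lower in the RNA-seq pair. With 1 library in each group these differences were not tested. The proliferation genes had a median log2 ratio of 0.17 in the RNA-seq pair and -1.11 in the inputs, and the linker histones 1.2 and -1.15. Their part in the HMG values was not tested.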

How the results depend on the processing

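Of the counts of called genes, the HMG counts changed by over 1.5 times as follows. With a 1.5-fold limit, 1 HMG gene in place of 0 was lower in the RNA-seq knockdown, 7 in place of 4 in the shADAR1 input and 3 in place of 1 in shHuR against shADAR1. With at least 10 counts, 1 in place of 0 (HMGN5) was higher in the shHuR input. With GC and length trends removed, 1 in place of 0 (HMGN1) was lower in the RNA-seq knockdown, 1 in place of 2 was depleted in the shControl precipitate, and 1 in place of 0 had higher enrichment in shHuR than in shControl. With total counts, 6 in place of 3 were depleted in the shADAR1 precipitate, 1 in place of 0 had lower enrichment in shADAR1 than in shControl, and 0 in place of 1 had higher enrichment in shHuR than in shADAR1. The causes were not tested.

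In the edgeR precipitation test, total counts gave 2769 genes higher and 8287 lower in place of 4926 and 5087, with 7 HMG genes lower in place of 3 and HMGA2 reversed at -0.22. Leaving out 1 line gave 2831 to 5383 higher and 3589 to 5863 lower, the lowest counts without the shADAR1 line. Without the pairing by line (no replicate block) 3020 genes were lower and 1 HMG gene in place of 3, since HMGA1 (adjusted p = 0.0568) and HMGN1 (0.218) no longer passed, nor did HMGA2 (0.244) among the higher genes. In the knockdown test, 13 genes higher and 2 lower became 92 and 24 with DESeq2, 140 and 34 without the filter on low counts, and 0 and 0 with no block, with 0 HMG genes passing in each. Leaving out 1 experiment leaves that test no residual degrees of freedom.

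Depth limits HMGN5 (at most 44 counts in an input and 11 in a precipitate) and HMGN3 (25 to 57 precipitate counts). Enrichment has no mock precipitate, and each value of a pair has 1 library per group.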
